A study of Homo sapiens with 18 samples.

Results

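The SLC25 genes encode the mitochondrial carrier family, and 42 of the 48 genes with a symbol of the form SLC25A followed by a number were members here, among 58051 genes measured. A gene was a member when its mean level over the 9 libraries of a line reached 1 CPM, a unit of counts scaled to library size, in either melanoma line. RNA sequencing was made in SKMEL2 and SKMEL30, human melanoma lines that both carry a changed codon 61 of NRAS. Each line held a lentiviral tet-ON vector, pTRIPZ-PPP2R3B, which makes Myc-tagged PPP2R3B (the PR70 regulatory subunit of the phosphatase PP2A) when doxycycline is added. The groups were uninduced cells, cells after 6 hours of doxycycline and cells after 18 hours by the labels, with 3 libraries in each group of each line and 18 libraries in all. The labels give no time for the uninduced cells, and 1 uninduced group per line served for both times. Time in culture may therefore not be matched between the groups. The stable lines were selected with puromycin, and whether they were pools or clones is not stated. Every group carried the vector, and no library held doxycycline without the vector, so the drug and the induced gene cannot be told apart. Nothing in the sources says that replicates came from separate cultures, so p-values measure the spread between these libraries, which may be technical.

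Mitochondrial carriers are small proteins of the inner mitochondrial membrane that exchange or move metabolites between the cytosol and the matrix. They carry nucleotides, phosphate, carboxylates, amino acids, cofactors and metal ions, and each member prefers its own few substrates. A few sit elsewhere, such as SLC25A17 in peroxisomes and SLC25A46 in the outer mitochondrial membrane. Pyrimidine nucleotides reach the matrix through SLC25A33 and SLC25A36, where they feed the copying and transcription of mitochondrial DNA.

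These paired carriers of one substrate class differed in their response, so the 250 bases before each gene start are shown for comparison, from RefSeq on GRCh38.p14. The SLC25A36 stretch lies at chr3:140941586-140941835 and the SLC25A33 stretch at chr1:9539215-9539464, both on the plus strand. Capitals mark CACGTG (an E-box, the letters bound by factors such as MITF and MYC), TGACGTCA (the cyclic AMP response element) and CCAAT (the CCAAT box).
SLC25A36: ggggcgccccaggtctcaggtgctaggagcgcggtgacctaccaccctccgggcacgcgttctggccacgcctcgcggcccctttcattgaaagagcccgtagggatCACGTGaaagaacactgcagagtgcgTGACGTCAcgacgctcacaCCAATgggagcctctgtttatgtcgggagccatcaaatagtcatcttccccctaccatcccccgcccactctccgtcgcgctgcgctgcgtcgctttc
SLC25A33: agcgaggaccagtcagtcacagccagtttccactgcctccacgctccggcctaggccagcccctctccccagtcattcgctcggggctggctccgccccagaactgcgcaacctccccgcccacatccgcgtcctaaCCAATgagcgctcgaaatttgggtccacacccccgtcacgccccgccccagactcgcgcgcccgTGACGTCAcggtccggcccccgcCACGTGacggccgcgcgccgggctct

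Both stretches held all 3 motifs, in a different order. In SLC25A36 the E-box began 143 bases before the start, the cyclic AMP element 117 and the CCAAT box 98. In SLC25A33 the CCAAT box was farthest, at 113 bases, followed by the cyclic AMP element at 49 and the E-box at 26. Searched on both strands over 27305 RefSeq promoters of the same length, CACGTG was found in 6.49%, TGACGTCA in 1.77% and CCAAT in 33.0%. Of the 36 members with a promoter in the table, 6 held CACGTG, 3 held TGACGTCA and 18 held CCAAT. The longer palindrome TCACGTGA, which contains CACGTG, was found in SLC25A36, SLC25A38 and SLC25A51 among the members and in 0.890% of promoters. All 3 capitalised motifs together were found in 15 promoters, 0.0549% of the table, a combination chosen after these sequences were seen. Members without an entry included SLC25A16, SLC25A30, SLC25A32, SLC25A35 and SLC25A37.

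The induced gene was checked first. PPP2R3B in uninduced SKMEL2 libraries measured 24.4, 20.5 and 17.2 CPM, against 343, 418 and 515 CPM at 6 hours and 426, 512 and 484 CPM at 18 hours. In uninduced SKMEL30 it measured 22.4, 19.8 and 20.6 CPM, against 521, 535 and 566 CPM at 6 hours and 617, 617 and 614 CPM at 18 hours. Every induced library lay far above every uninduced one in both lines.

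Library totals ran from 13402645 to 22383470 counts. All 7 melanocyte lineage markers listed, among them MITF, SOX10 and PMEL, passed 1 CPM in both lines. Of these, TYRP1 had a mean of 5.51 CPM in SKMEL2 against 1225 CPM in SKMEL30. The spread between replicates was wider in SKMEL2, where the biological coefficient of variation was 8.36%, than in SKMEL30, where it was 4.11%. SKMEL2 6 h replicate 3 stood apart from its group: over 41 members, its median absolute log2 difference from the mean of its 2 group mates was 0.221, against 0.0431 to 0.153 in the other 17 libraries. For SLC25A36, SLC25A6 and SLC25A39, which were far out in this library, the SKMEL2 6 h values are given with and without it. Markers of leukocytes summed to at most 0.804 CPM. Those of endothelium, of which 2 of the 3 listed were found in the data, summed to at most 2.97 CPM. Fibroblast markers summed to between 2.25 and 4.08 CPM in SKMEL2 and between 28.1 and 33.6 CPM in SKMEL30. Most of this was LUM, with a mean of 2.42 CPM in SKMEL2 and 29.6 CPM in SKMEL30. DCN had means of 0.0507 and 0.458 CPM, and PDGFRA, which was higher in SKMEL2, had 0.804 and 0.131 CPM. The keratinocyte markers KRT5 and KRT14 together held 0.517 to 15.0 CPM in SKMEL2 libraries and 0.0668 to 64.0 CPM in those of SKMEL30, and KRT1 was at 0 throughout.

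SLC25A36 was the 1 member called against uninduced cells, at both times in SKMEL30 and for the mean of both times in each line. Its gene (ENSG00000114120) spans chr3:140941836-140980995 on GRCh38.p14, and all its counts were whole numbers, as they are where RSEM shares no reads with other genes. In SKMEL2 it measured 183, 168 and 159 CPM in uninduced cells, 275, 265 and 213 CPM at 6 hours, and 253, 269 and 254 CPM at 18 hours. In SKMEL30 the uninduced libraries measured 188, 188 and 191 CPM, the 6 h libraries 266, 297 and 287 CPM, and the 18 h libraries 266, 259.8 and 283 CPM. The induced and uninduced values of a line did not overlap, and the lowest induced value was that of SKMEL2 6 h replicate 3.

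**Figure D1:**
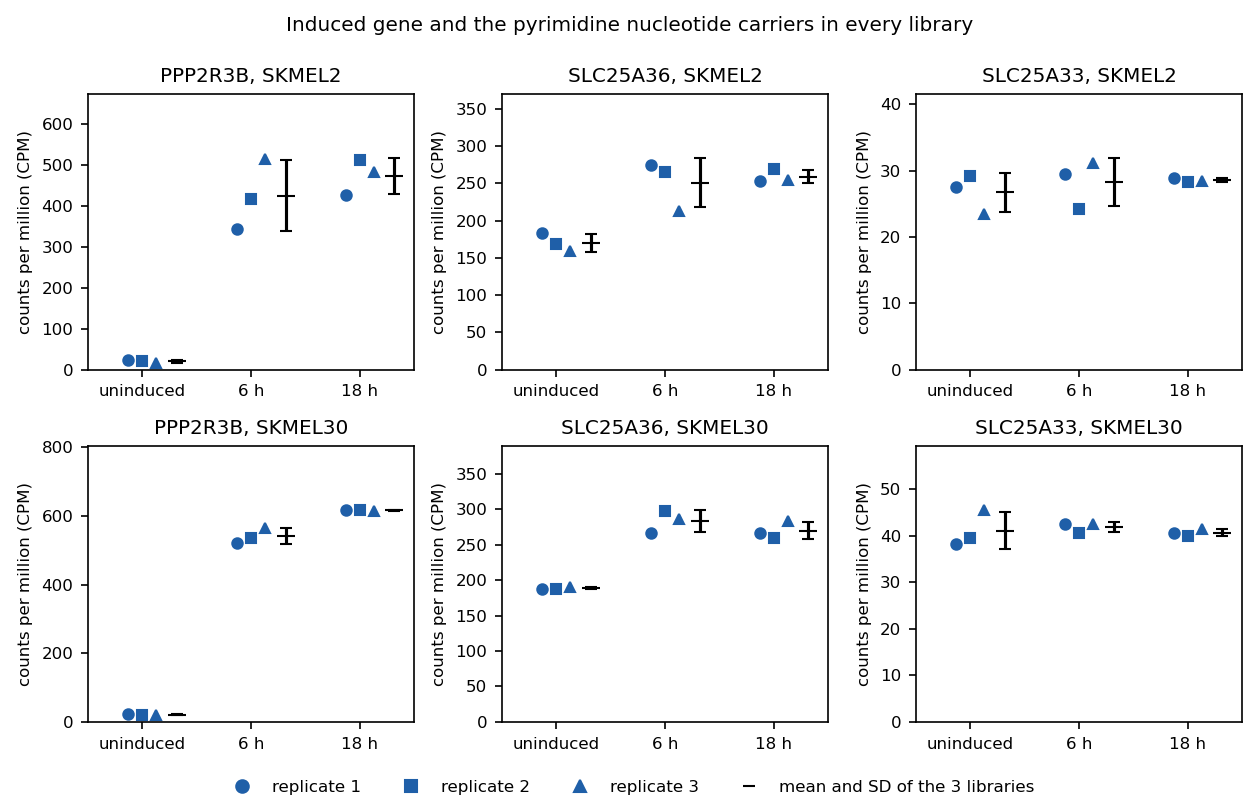
CPM of PPP2R3B, SLC25A36 and SLC25A33 in each library, by group, in SKMEL2 (upper row) and SKMEL30 (lower row), with marker shapes for replicates and black bars for the mean and SD of 3 libraries. SLC25A36 lay between 159 and 191 CPM in the 6 uninduced libraries of both lines and between 213 and 297 CPM in the 12 induced ones, while the SLC25A33 groups overlapped.

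In SKMEL30 the rise of SLC25A36 passed the test at both times. The log2 fold change was 0.58 (SE 0.04, 95% confidence interval 0.50 to 0.67) at 6 hours, with an adjusted p of 2.96e-06. At 18 hours it was 0.51 (SE 0.04, interval 0.42 to 0.60), a ratio of 1.42, with an adjusted p of 6.37e-06. By p-value the gene ranked 4 at 6 hours and 11 at 18 hours among 15026 genes tested. The keratin sum was highest in SKMEL30 6 h replicate 3, and without that library the 6 h log2 fold change was 0.57 (adjusted p 4.46e-05). The other 6 h libraries carried 5.07 and 0.251 CPM of KRT5 and KRT14, with SLC25A36 at 266 and 297 CPM.

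In SKMEL2 the sizes were similar and the tests weaker. The log2 fold change was 0.56 (SE 0.09, interval 0.38 to 0.75) at 6 hours, with an adjusted p of 0.143. At 18 hours it was 0.60 (SE 0.09, interval 0.42 to 0.79), with an adjusted p of 0.0555, so neither time was called at 0.05. The mean of both induced groups was 0.58 above uninduced (SE 0.08, interval 0.42 to 0.75) with an adjusted p of 0.0301, which passed. Leaving out any library other than 6 h replicate 3 raised this adjusted p to between 0.0560 and 0.361. Without 6 h replicate 3, the 6 h log2 fold change was 0.66 with an adjusted p of 0.00328, and the mean of both times was 0.63 with an adjusted p of 0.000780. With DESeq2 in place of edgeR the adjusted p was 3.22e-06 at 6 hours and 4.60e-08 at 18 hours.

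An exact two-sided permutation test of 6 induced against 3 uninduced libraries gave p = 0.0119 for SLC25A36 in each line, the smallest p that the 84 splits allow. A comparison of 3 against 3 cannot go below 0.1. This p is not adjusted for the number of genes. All 6 induced libraries lay above all 3 uninduced ones in 1.27% of all genes in SKMEL2 and 2.14% in SKMEL30.

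No change between the times passed the test. From 6 to 18 hours the log2 difference was 0.04 (interval -0.15 to 0.23, adjusted p 1.00) in SKMEL2 and -0.07 (interval -0.16 to 0.01, adjusted p 0.919) in SKMEL30. The difference between the lines in the response, SKMEL2 minus SKMEL30, was -0.02 at 6 hours (interval -0.24 to 0.20, adjusted p 1.00) and 0.10 at 18 hours (interval -0.12 to 0.31, adjusted p 0.934).

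SKMEL2 6 h replicate 3 had the smallest rise of SLC25A36 while PPP2R3B in it, at 515 CPM, was the highest of the SKMEL2 libraries. C21orf91, which was called at both times in both lines (log2 fold change 1.13 at 6 hours in SKMEL2 and 1.12 in SKMEL30), was also at its lowest induced value there, 193 CPM against 227 to 252 CPM in the other induced SKMEL2 libraries. Uninduced SKMEL2 cells held 92.1 to 118 CPM of C21orf91.

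The question asked of the family was whether SLC25A36 stood alone. In SKMEL30, 1 of 41 members tested was called at 6 hours and 1 of 41 at 18 hours, in each case SLC25A36, where 0.206% and 0.293% of all genes tested were called. In SKMEL2, 0 of 41 members were called at either time by edgeR, where 0.0124% of all genes were called at each. SLC25A36 was the single SKMEL2 member with an unadjusted p under 0.05 at each time, a mark that 3.37% of all genes reached at 6 hours and 4.65% at 18 hours. It was also the single member called by DESeq2, whose share over all genes is not given here. In SKMEL30 an unadjusted p under 0.05 was reached by 3 of 41 members at 6 hours and 7 of 41 at 18 hours, against 6.44% and 9.14% of all genes. For the mean of both induced groups, SLC25A36 was the 1 member called in each line, where the share over all genes was 0.0186% in SKMEL2 and 0.260% in SKMEL30. At an unadjusted p under 0.05 that mean counted 1 of 41 members in SKMEL2 and 8 of 41 in SKMEL30, against 4.42% and 8.67% of all genes. Those SKMEL2 calls were 3 genes of 16120, with SLC25A36 placed behind PPP2R3B and C21orf91. SLC25A48 was too low to test in SKMEL2 and SLC25A21 too low in SKMEL30, which left 40 other members tested in each line.

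**Figure D2:**
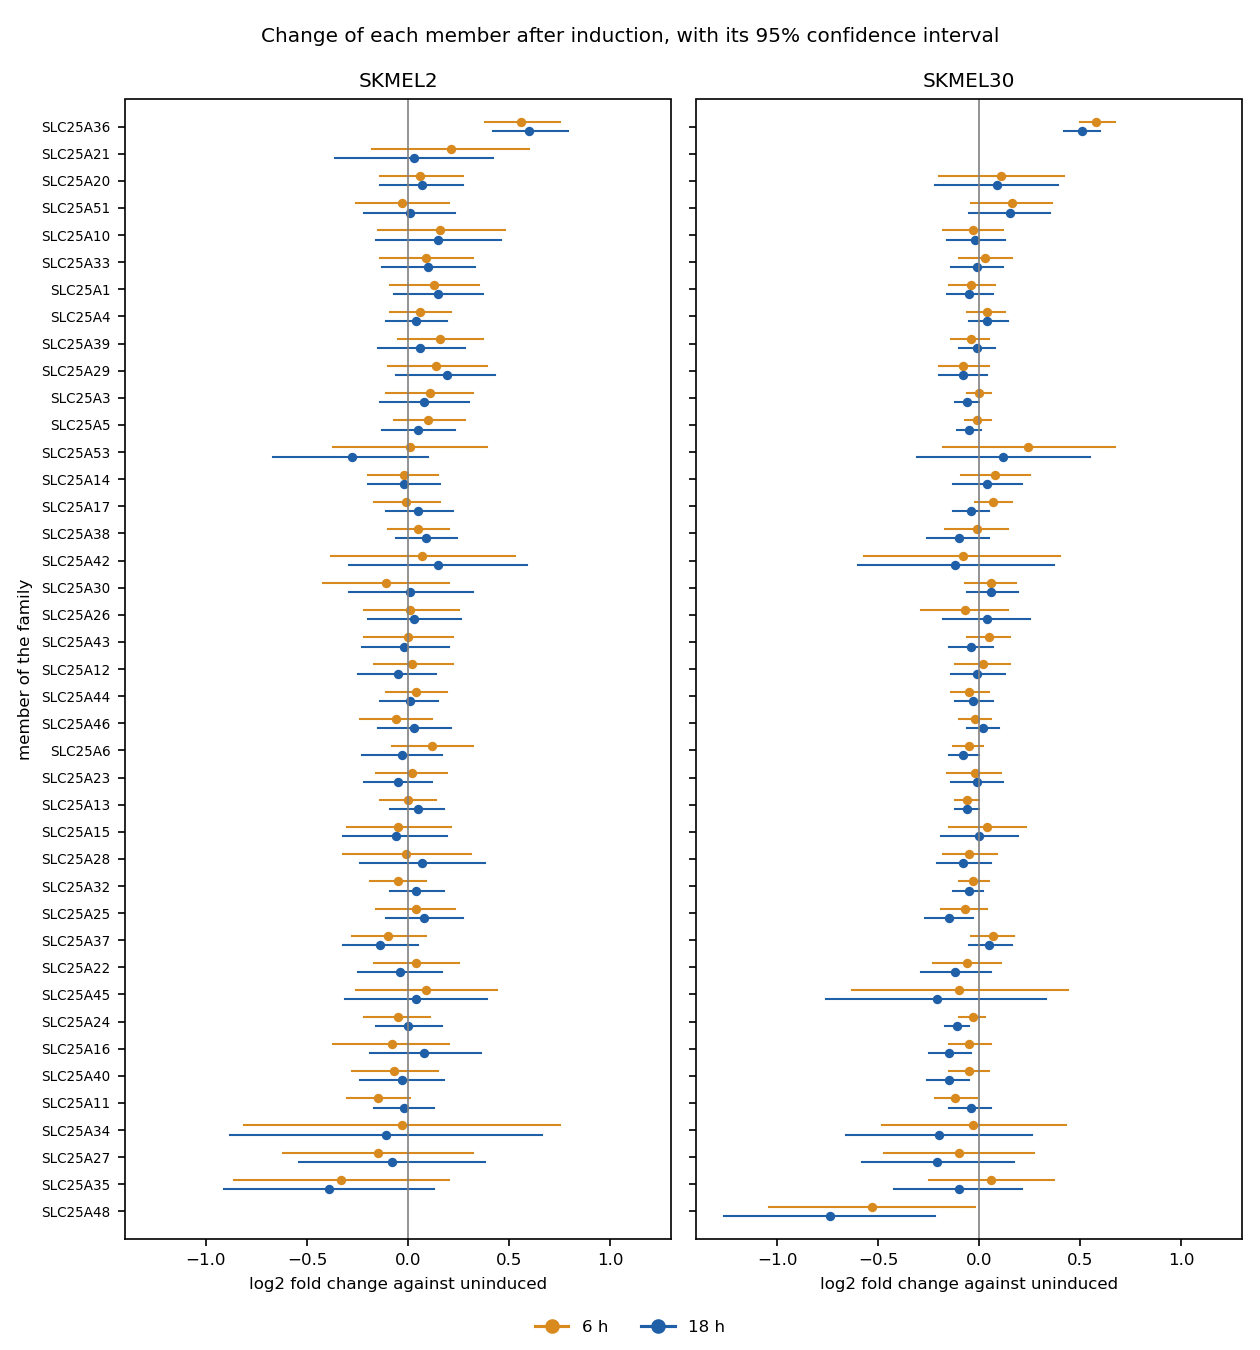
log2 fold change of the members drawn against uninduced cells at 6 h (orange) and 18 h (blue) in SKMEL2 (left) and SKMEL30 (right), with lines for the 95% confidence interval, ordered by the mean of the values. The points of SLC25A36 lie between 0.51 and 0.60 and their intervals do not reach 0, while most other members lie close to the grey line at 0.

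None of the other 40 members tested in a line was called at either time. Their log2 fold changes in SKMEL2 ran from -0.33 (SLC25A35) to 0.21 (SLC25A21) at 6 hours and from -0.39 (SLC25A35) to 0.19 (SLC25A29) at 18 hours. In SKMEL30 they ran from -0.53 (SLC25A48) to 0.24 (SLC25A53) at 6 hours and from -0.74 (SLC25A48) to 0.15 (SLC25A51) at 18 hours. The median over the tested members was 0.02 and 0.03 in SKMEL2 and -0.03 and -0.04 in SKMEL30, where the median of all genes was 0.00 throughout. Of the 41 tested members, 18 at 6 hours and 14 at 18 hours had estimates below 0 in SKMEL2, against 25 and 29 in SKMEL30. The 95% interval of SLC25A36 lay wholly above that of 33 of the 40 other members at 6 hours and 35 at 18 hours in SKMEL2, and above that of 39 of 40 at each time in SKMEL30. Leaving out 1 library moved these counts to between 21 (without uninduced replicate 2) and 38 (without 6 h replicate 3) at 6 hours in SKMEL2, to between 26 and 32 at 18 hours, and to between 35 and 38 in SKMEL30. The SKMEL30 exception was SLC25A53, whose counts are low.

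Libraries were also sorted by level. In SKMEL2, SLC25A36 was the 1 member of 41 with all 6 induced libraries above all 3 uninduced ones, a pattern seen in 1.27% of all genes, and 0 members had the reverse pattern, seen in 1.21%. In SKMEL30, SLC25A36 was again the 1 member above, 2.44% of the 41, which is close to the 2.14% of all genes. SLC25A13, SLC25A24 and SLC25A48 had all 6 induced libraries below the 3 uninduced ones there, 3 of 41 members against 2.24% of all genes, and none of these was called.

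Set against the family's summed RNA, SLC25A36 made up a larger share after induction. This restates the rise given above and is not a separate result. The members summed to between 2505 and 2884 CPM in SKMEL2 and between 3164 and 3285 CPM in SKMEL30. The share of SLC25A36 in that sum was 6.16% to 6.87% in uninduced SKMEL2, 7.40% to 9.86% at 6 hours and 9.01% to 9.64% at 18 hours. In SKMEL30 the share was 5.88% to 5.92% before induction, 8.09% to 9.15% at 6 hours and 8.10% to 8.86% at 18 hours. The ranges before and after induction did not overlap in either line.

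SLC25A33, the carrier with the most similar substrates, showed no such rise. Its gene lies on chromosome 1, and it measured 27.5, 29.2 and 23.5 CPM in uninduced SKMEL2, 29.5, 24.2 and 31.2 CPM at 6 hours and 28.9, 28.3 and 28.5 CPM at 18 hours. In SKMEL30 it measured 38.1, 39.4 and 45.5 CPM, then 42.4, 40.5 and 42.5 CPM, then 40.6, 39.9 and 41.3 CPM. The groups overlapped in both lines, and the exact permutation test of 6 against 3 libraries gave p = 0.345 in SKMEL2 and p = 0.845 in SKMEL30. Its log2 fold changes were 0.09 (interval -0.14 to 0.32) and 0.10 (-0.13 to 0.33) in SKMEL2 and 0.03 (-0.10 to 0.16) and -0.01 (-0.14 to 0.12) in SKMEL30.

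The ratio of SLC25A36 to SLC25A33 within a library does not depend on the scaling of libraries. In SKMEL2 it was 6.39 ± 0.545 (SD, n = 3) uninduced, 9.03 ± 2.05 at 6 hours and 9.06 ± 0.372 at 18 hours. In SKMEL30 it was 4.64 ± 0.393 (SD, n = 3), 6.79 ± 0.541 and 6.64 ± 0.193. The log2 ratio was higher in induced cells by 0.49 in SKMEL2 and by 0.53 in SKMEL30, with an exact permutation p of 0.0119 in each. This largely restates the rise of SLC25A36 and is not particular to SLC25A33. The ratio of SLC25A36 to 28 of the 40 other members in SKMEL2 was higher in every induced library than in every uninduced one. In SKMEL30 this held for 38 of 40, and SLC25A33 was counted in both lines. In SKMEL2 the lowest induced ratio, 6.84, was close to the highest uninduced one, 6.76, and leaving out 6 h replicate 1 or 18 h replicate 2 gave an exact permutation p of 0.0536.

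The motifs capitalised above were also found in promoters of members that were not called. Of the 6 members with CACGTG, SLC25A36 was called and the other 5 had log2 fold changes over both times of -0.01 to 0.09 in SKMEL2 and -0.06 to 0.16 in SKMEL30. Of the other tested genes with CACGTG, 0 of 1002 were called in SKMEL2 and 1 of 967 in SKMEL30 (0.103%, the actin gene ACTG1, named after its values were seen), for the mean of both times by edgeR, where 0.0186% and 0.260% of all genes were called. An unadjusted p under 0.05 was reached by 43 (4.29%) and 88 (9.10%) of them, against 4.42% and 8.67% of all genes. The combination of all 3 motifs was taken from the promoter of SLC25A36 and so contains it. Of the other 13 tested genes with the combination 0 were called in either line, 1 in SKMEL2 and 0 in SKMEL30 had an unadjusted p under 0.05, and their median log2 fold change was 0.04 in SKMEL2 and 0.01 in SKMEL30. None of these motifs was found in the promoter of C21orf91. No binding or promoter activity was measured here, and a role of these motifs in the response was not tested.

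The genes around SLC25A36 on chromosome 3 were also measured. The nearest tested genes were PXYLP1, ZBTB38 and RASA2 on the right, at 250, 343 and 506 kb, and NMNAT3, COPB2-DT and COPB2 on the left, at 1263, 1358 and 1552 kb. None was called at either time, and their estimates ran from -0.60 (NMNAT3, SE 0.39, SKMEL2 at 6 hours) to 0.09 (ZBTB38, SE 0.03, SKMEL30 at 18 hours). COPB2-DT and NMNAT3 were tested in SKMEL2 alone.

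The ADP/ATP carriers SLC25A4, SLC25A5 and SLC25A6 trade matrix ATP for cytosolic ADP. SLC25A5 and SLC25A6 were among the 3 members with the highest mean CPM, while SLC25A4 was lower, at 44.4 CPM in SKMEL2 and 84.5 CPM in SKMEL30 over the 9 libraries of a line. SLC25A6 lies in the pseudoautosomal region of chromosome X, as PPP2R3B does, with 0.999 Mb between them. It measured 216, 235 and 236 CPM in uninduced SKMEL2, 234, 221 and 290.1 CPM at 6 hours, and 220.3, 218 and 236 CPM at 18 hours. In SKMEL30 it measured 344, 357 and 344 CPM, then 347, 317 and 342 CPM, then 326, 339 and 326 CPM. The value of 290.1 CPM in SKMEL2 6 h replicate 3 stood above all other SKMEL2 libraries. With it the 6 h log2 fold change was 0.12 (interval -0.08 to 0.32, adjusted p 0.989), and without it -0.02 (interval -0.14 to 0.11, adjusted p 1.00). In SKMEL30 all 3 libraries at 18 hours lay below all 3 uninduced ones, while those at 6 hours overlapped with them. The SKMEL30 log2 fold change at 18 hours was -0.08 (interval -0.15 to -0.00), with an unadjusted p of 0.0447 and an adjusted p of 0.528, and the gene was not called. The exact permutation test over 6 against 3 libraries gave p = 0.714 in SKMEL2 and p = 0.0833 in SKMEL30.

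SLC25A5 gave an exact permutation p of 0.333 in SKMEL2 and 0.345 in SKMEL30, and SLC25A4 gave 0.250 and 0.274. All counts of SLC25A5 were estimates that were not whole, since RSEM shares reads among near-identical copies, so its level is uncertain. The testis form SLC25A31 reached at most 2 counts in any library and was below the level rule.

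The calcium-regulated ATP-Mg/phosphate carriers held SLC25A24, with the second smallest p of the members in SKMEL30 at 18 hours. SLC25A24 measured 131, 132 and 133 CPM in uninduced SKMEL30, 127, 129 and 131 CPM at 6 hours and 119.6, 123 and 124 CPM at 18 hours. The log2 fold change at 18 hours was -0.11 (SE 0.03, interval -0.17 to -0.05), with an adjusted p of 0.207, and from 6 to 18 hours it was -0.08 (adjusted p 0.808). In SKMEL2 the 18 h value was 0.00 (interval -0.16 to 0.17). SLC25A25 of the same group had -0.15 (interval -0.27 to -0.03, adjusted p 0.423) in SKMEL30 at 18 hours and 0.08 (interval -0.11 to 0.27) in SKMEL2. The test of that line difference gave 0.23 (interval 0.03 to 0.43) with an adjusted p of 0.895.

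Carriers of glutathione, SLC25A39 and SLC25A40, were not called. SLC25A40 measured 40.5, 40.5 and 39.6 CPM in uninduced SKMEL30 and 37.3, 34.9 and 36.2 CPM at 18 hours, with a log2 fold change of -0.15 (interval -0.26 to -0.05, adjusted p 0.322). SLC25A39 ranged from 110.4 to 126 CPM over all SKMEL30 libraries, with log2 fold changes of -0.04 and -0.01. In SKMEL2 its 6 h value was 0.16 (interval -0.05 to 0.37), with the highest library, 109.8 CPM, again 6 h replicate 3. Without that library the value was 0.03 (interval -0.13 to 0.19, adjusted p 1.00), and leaving out any other library gave 0.10 to 0.24.

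Among amino acid carriers, SLC25A13, which exchanges aspartate for glutamate, varied little. It measured 195, 198 and 202 CPM in uninduced SKMEL30 and between 186 and 194 CPM in the 6 induced libraries, with log2 fold changes of -0.06 (interval -0.12 to 0.00) at each time. SLC25A29, a carrier of basic amino acids, had the largest 18 h value of the other members in SKMEL2, 0.19 (interval -0.06 to 0.43, adjusted p 0.987), and -0.08 in SKMEL30. The line difference for SLC25A29 at 18 hours was 0.27 (interval 0.00 to 0.53, adjusted p 0.895).

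SLC25A11, the oxoglutarate and malate carrier, had the second smallest p of the members at 6 hours in both lines, with -0.15 (interval -0.30 to 0.01, adjusted p 0.989) in SKMEL2 and -0.12 (interval -0.22 to -0.01, adjusted p 0.738) in SKMEL30. At 18 hours its values were -0.02 and -0.04. SLC25A16, grouped with the cofactor carriers, had -0.15 in SKMEL30 at 18 hours (adjusted p 0.361) and 0.08 in SKMEL2. SLC25A17, the peroxisomal carrier of coenzyme A and related cofactors, had -0.10 from 6 to 18 hours in SKMEL30 (adjusted p 0.846).

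SLC25A48, a member with few reads, had the estimates farthest below 0. In SKMEL30 its counts were 40, 34 and 34 in uninduced cells, 20, 21 and 37 at 6 hours and 22, 22 and 20 at 18 hours. On the CPM scale these were 2.25, 1.86 and 2.15, then 1.56, 1.05 and 1.73, then 1.20, 1.47 and 1.10, so the induced libraries all lay below the uninduced ones. The log2 fold change was -0.53 (interval -1.04 to -0.02, adjusted p 0.758) at 6 hours and -0.74 (interval -1.26 to -0.22, adjusted p 0.338) at 18 hours, where its distance from 0 was larger than that of SLC25A36. Leaving out 1 library moved the 6 h value to between -0.71 (without 6 h replicate 3) and -0.33 (without 6 h replicate 2), and the 18 h value to between -0.86 and -0.65. SLC25A35 and SLC25A53, also low, had wide intervals, such as -0.91 to 0.13 for SLC25A35 in SKMEL2 at 18 hours.

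Between 6 and 18 hours, 0 of 41 members were called in either line by edgeR or DESeq2. By edgeR 0% of all genes were called in SKMEL2 and 0.0200% in SKMEL30, and the shares by DESeq2 are not given here. At an unadjusted p under 0.05 there were 0 members in SKMEL2 and 2 in SKMEL30, against 2.59% and 5.56% of all genes. Estimates lay below 0 for 19 of 41 members in SKMEL2 and 32 of 41 in SKMEL30. The line difference in the response was called for 0 of 42 members at either time by both tools. By edgeR 0% of all genes were called at 6 hours and 0.00584% at 18 hours, and again the DESeq2 shares are not given. At an unadjusted p under 0.05 it counted 1 member at 6 hours and 3 at 18 hours, against 4.91% and 5.16% of all genes. The member at 6 hours was SLC25A48, which was also 1 of the 3 at 18 hours. SLC25A48 had 4 counts over the 9 SKMEL2 libraries and was a member through SKMEL30 alone. Its line difference therefore rests on a line where it was near 0 and cannot be read as a difference in response.

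**Figure D3:**
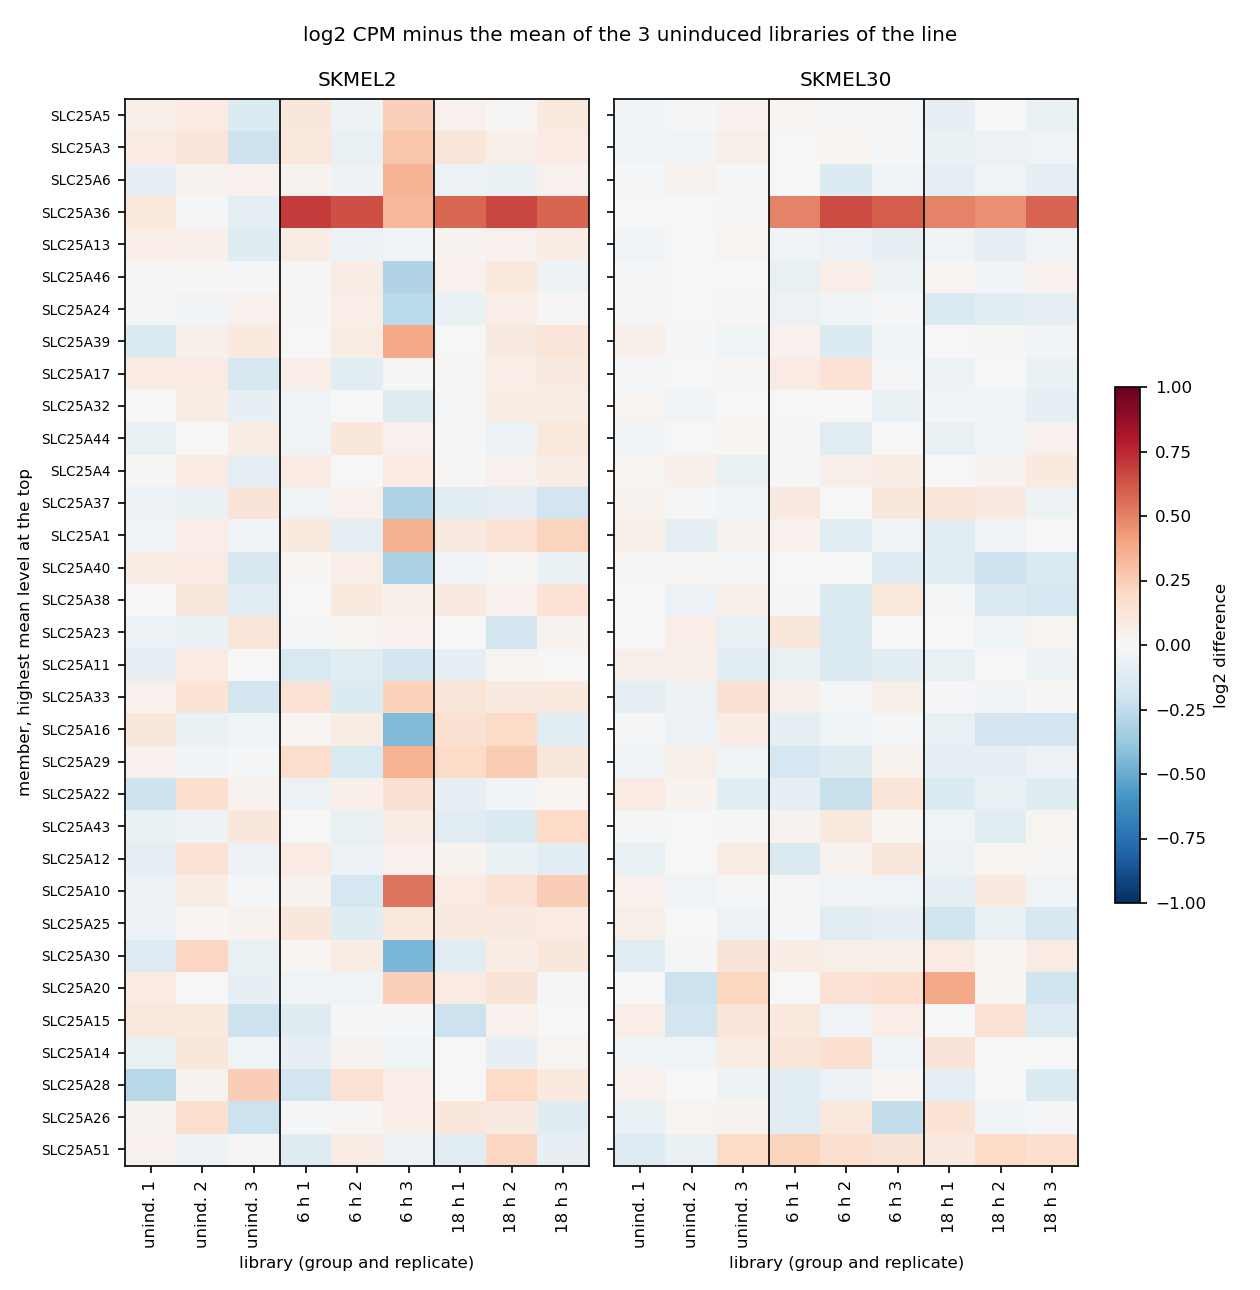
Colour shows log2 CPM of each member minus the mean of the line's 3 uninduced libraries, by library, for 33 members with a mean of at least 5 CPM in each line. The row of SLC25A36 is red in all 12 induced libraries, and SKMEL2 6 h replicate 3 shows more red and blue cells than any other column.

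The genes that feed, use or import the same molecules were counted from 6 lists: carriers named otherwise (such as UCP2), import of carriers, other transporters of the mitochondrial membranes, mitochondrial nucleotide supply, pyrimidine synthesis and mitochondrial DNA upkeep. Of 77 listed genes tested in SKMEL2 and 78 in SKMEL30, 0 were called at either time by edgeR or by DESeq2, where edgeR called 0.0124% of all genes at each time in SKMEL2 and 0.206% and 0.293% in SKMEL30. At an unadjusted p under 0.05 the counts were 0 and 2 in SKMEL2 and 5 and 10 in SKMEL30, at 6 and 18 hours. As shares these were 0% and 2.60% in SKMEL2, against 3.37% and 4.65% of all genes, and 6.41% and 12.8% in SKMEL30, against 6.44% and 9.14%.

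Pyrimidine synthesis supplied 7 of the 10 genes counted in SKMEL30 at 18 hours, which is 38.9% of its 18 genes against 9.14% of all genes, with 6 estimates below 0 and 1 above. It was singled out after the values were seen, as the largest share of the 6 lists, where the others had 0% to 8.33%. The same list counted 0 genes at 6 hours and 1 at 18 hours in SKMEL2, and 1 at 6 hours in SKMEL30. The 1 estimate above 0 in SKMEL30 at 18 hours was NME2, a nucleoside diphosphate kinase, at 0.07 (SE 0.03, adjusted p 0.467). Those below included TYMS, the thymidylate synthase, at -0.11 (SE 0.03, adjusted p 0.187) and NME1, another such kinase, at -0.09 (adjusted p 0.376). UCK1, a uridine and cytidine kinase, had 0.23 in SKMEL2 at 18 hours (adjusted p 0.987) and -0.12 in SKMEL30. In nucleotide supply, TK2, the mitochondrial thymidine kinase, had 0.30 in SKMEL2 at 18 hours (SE 0.10, adjusted p 0.987) and -0.07 in SKMEL30. TYMP, thymidine phosphorylase, had -0.59 in SKMEL30 at 18 hours (SE 0.23, adjusted p 0.467) and 0.40 in SKMEL2 (SE 0.25).

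SSBP1, which coats single-stranded mitochondrial DNA, had the smallest p of the upkeep list, at 0.10 and 0.13 in SKMEL30 (adjusted p 0.561 and 0.180) and -0.03 and -0.01 in SKMEL2. Among importers, TIMM9, a chaperone of the intermembrane space, had 0.13 in SKMEL30 at 6 hours (adjusted p 0.701), and TOMM20, a receptor of the outer membrane, had -0.07 at 18 hours (adjusted p 0.421). MCU, the pore of the calcium uniporter, had 0.12 in SKMEL30 at 6 hours (adjusted p 0.760) and -0.17 in SKMEL2 at 18 hours (adjusted p 0.987). UCP2, an uncoupling protein, had 0.44 and 0.21 in SKMEL2 (SE 0.33 each) and -0.02 and -0.01 in SKMEL30 (SE 0.05 each).

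Before induction the lines differed in most of the family. In uninduced cells 37 of 42 members were called, 14 higher in SKMEL2 and 23 lower, where 75.9% of all genes tested were called, 40.1% higher and 35.8% lower. The members not called were SLC25A1, SLC25A13, SLC25A22, SLC25A36 and SLC25A46. At least a 2-fold difference was called for 13 members (31.0%), 5 higher in SKMEL2 and 8 higher in SKMEL30, where 34.7% of all genes passed both criteria. SLC25A21, SLC25A34 and SLC25A48 reached the 1 CPM of the member rule in 1 line alone, so a difference between the lines was built into their choice. Of the 39 members that reached it in each line, a subset taken after the data were seen, 34 were called, 13 higher in SKMEL2 and 21 lower, and 10 (25.6%) differed at least 2-fold. The direction of the 37 called members was the same under all alternatives that gave a value.

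SLC25A36 differed little between the uninduced lines, at 170.0 ± 12.3 CPM (SD, n = 3) in SKMEL2 and 189 ± 1.53 CPM in SKMEL30. The log2 difference was -0.16 (interval -0.31 to -0.00, adjusted p 0.0638). This is close to the threshold: with no filter on low counts the adjusted p was 0.0161, with only the 6 libraries compared 0.0281, and without SKMEL2 uninduced replicate 1 it was 0.0189. SLC25A33 was lower in SKMEL2, at 26.7 ± 2.95 CPM against 41.0 ± 3.96 CPM, a log2 difference of -0.62 (adjusted p 2.58e-06).

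**Figure D4:**
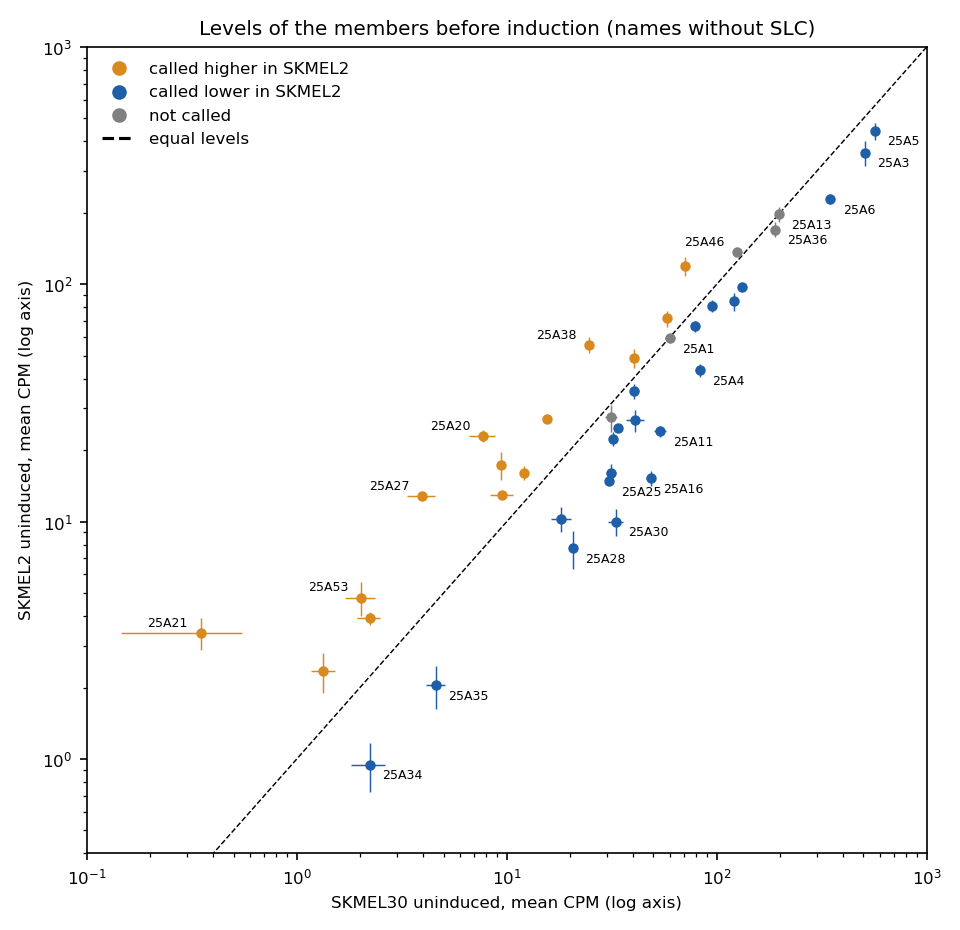
Mean CPM of 40 members in uninduced SKMEL2 (vertical) against uninduced SKMEL30 (horizontal) on log axes, with the SD of 3 libraries as bars, orange for members called higher in SKMEL2, blue for lower and grey for not called. The ADP/ATP carriers lie below the dashed line of equal levels, SLC25A21 and SLC25A20 above it, and SLC25A36 close to it.

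The 5 largest differences towards SKMEL2 were in SLC25A21, SLC25A27, SLC25A20, SLC25A53 and SLC25A38, of which SLC25A21 was a member through SKMEL2 alone. SLC25A21, a carrier of oxodicarboxylates, measured 3.96, 3.33 and 2.90 CPM in uninduced SKMEL2 and 0.564, 0.164 and 0.317 CPM in SKMEL30, a ratio of 9.57. SLC25A20, which brings acylcarnitines into the matrix for fatty acid oxidation, measured 24.3, 23.1 and 21.7 CPM against 7.67, 6.60 and 8.86 CPM, a ratio of 2.99. The log2 difference was 1.70 for SLC25A27, a relative of the uncoupling proteins, 1.23 for SLC25A53 and 1.17 for SLC25A38, the glycine carrier needed for haem synthesis. The groups did not overlap for SLC25A21 or SLC25A20.

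The 5 largest differences towards SKMEL30 were in SLC25A48, SLC25A30, SLC25A16, SLC25A28 and SLC25A34, of which SLC25A48 and SLC25A34 were members through SKMEL30 alone. SLC25A48 had 0 counts in the 3 uninduced SKMEL2 libraries, against 2.09 ± 0.208 CPM (SD, n = 3) in SKMEL30, at least 13.7-fold higher against a floor of 3 counts per library. SLC25A30 measured 9.09, 11.5 and 9.46 CPM in SKMEL2 and 30.5, 32.5 and 35.9 CPM in SKMEL30, a log2 difference of -1.71. SLC25A16 measured 16.4, 14.5 and 14.7 CPM against 48.0, 46.6 and 50.9 CPM, a log2 difference of -1.68. SLC25A28, mitoferrin 2, which brings iron into mitochondria, differed by -1.41, and SLC25A34 by -1.20. Mitoferrin 1, SLC25A37, went the other way, with a log2 difference of 0.30.

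By substrate, the ADP/ATP carriers were all lower in SKMEL2, with log2 differences of -0.93 for SLC25A4, -0.60 for SLC25A6 and -0.35 for SLC25A5. All 3 tested ATP-Mg/phosphate carriers were lower too, from -1.05 for SLC25A25 to -0.19 for SLC25A23, and so was the phosphate carrier SLC25A3, at -0.51. The 7 tested cofactor carriers were called in both directions, 4 higher and 3 lower in SKMEL2. Of the 8 tested amino acid carriers 1 was called higher and 5 lower, a list that includes SLC25A18, which is below the level rule. The 3 relatives of the uncoupling proteins split into 2 higher and 1 lower, the glutathione carriers into 1 each way, and of 4 carriers of di- and tricarboxylates 2 were called higher and 1 lower. These counts stand against 40.1% of all genes called higher and 35.8% called lower. The aspartate-glutamate carriers split, with SLC25A12 at -0.97 and SLC25A13 at -0.01 (interval -0.11 to 0.09).

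On the level scale, SLC25A5, SLC25A3 and SLC25A6 had the highest mean CPM of the family, and SLC25A36 was 4 in order in both lines when all 9 libraries of a line, induced ones included, were averaged. In uninduced cells alone it was 5 in order in both lines, behind SLC25A13 as well. The lowest member mean was 0.0233 CPM in SKMEL2 and 0.295 CPM in SKMEL30, and the median over members was 25.3 and 32.4 CPM. Per kilobase of merged exon, which allows levels of different genes to be compared, the order changed. Over all 9 libraries SLC25A5 led with 295 CPM per kb in SKMEL2 and 359.7 in SKMEL30, then SLC25A6 with 151 and 218. SLC25A36, whose merged exons span 10339 bases, came 9 in SKMEL2 with 21.9 CPM per kb and 8 in SKMEL30 with 23.9 over all 9 libraries. In uninduced cells it came 11 in SKMEL2 with 16.4 CPM per kb and 10 in SKMEL30 with 18.3. Merged exons count every annotated isoform, so genes with long rarely used exons are understated.

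At the edge of the level rule, SLC25A48 had a mean of 1.60 CPM in SKMEL30 and SLC25A34 a mean of 2.09 CPM there, just inside. SLC25A18, a glutamate carrier, was just outside at 0.948 CPM in SKMEL30, and SLC25A41 was next at 0.220 CPM in SKMEL2. SLC25A2, SLC25A31, SLC25A47 and SLC25A52 were the other symbols below the rule. Of the 42 members, 23 had whole counts in all 18 libraries, SLC25A36 among them, and 11 had counts that were not whole in 16 or more libraries.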

How the data were processed

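The values deposited by the authors are RSEM expected counts per Ensembl gene, not scaled for library size. The labels list Trimmomatic 0.36, cutadapt 1.5, STAR 2.2.2a, SAMtools 1.8 and RSEM 1.3.0 with GRCh38, and the study's methods give other releases for some of these. RSEM divides reads that align to several genes, and 12.3% of values were not whole. The later time is 18 hours by the labels and 16 hours in the study's text. Whether counting used strand is not given in the sources used here, so reads of antisense genes cannot be told apart.

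All 18 columns matched a sample by name. Gene symbols were found for 55604 genes (95.8%) by Ensembl ID. Counts were rounded and tested with edgeR 4.0.16 in R 4.3.3 (filterByExpr, TMM factors, glmQLFit and glmQLFTest, Benjamini-Hochberg over all genes tested, called at 0.05). Each line was fitted on its 9 libraries, with 16120 genes in SKMEL2 and 15026 in SKMEL30. The uninduced lines and the line difference in response used all 18 libraries and 17133 genes. CPM used TMM factors over all 18 libraries (0.957 to 1.06). Intervals are 95% from the model and cover the spread between these libraries. DESeq2 1.42.0, other factors, filters, designs and leaving out each library were alternatives. The fits were tested on simulated counts.

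The members, gene lists and the rule for named genes (SLC25A36, SLC25A33, ADP/ATP carriers, members called or with the 3 smallest p in a comparison, the 5 largest line differences each way, the 3 highest members, those nearest the level threshold, outlying libraries, neighbours, and the smallest p per list) were chosen with earlier results of these data known. Deviations of replicates with the same number had correlations of -0.13 to 0.17 in SKMEL2 and -0.02 to 0.12 in SKMEL30. The correlation passed 0.1 in 3 of 9 pairs in SKMEL2 and 1 of 9 in SKMEL30, and the numbers were not used as pairs. Replicates with different numbers were not compared, so this check cannot decide whether the numbers pair the libraries. No 2 libraries of a group agreed within counting noise. 1 member is counted with the others and is not reported by name or drawn here.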

Additional observations from a re-analysis of the deposited data

Results flagged for a closer look

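For 6 members, 1 of the 6 induced SKMEL2 libraries was far out, with a gap to its neighbour above 0.625 of the whole range. For SLC25A36 the gap was 0.647 of the range and for SLC25A40 0.625, both with SKMEL2 6 h replicate 3 lowest. For SLC25A39 it was 0.694 and for SLC25A6 0.756, both with the same library highest. For SLC25A25 it was 0.852, with 6 h replicate 2 lowest at 13.6 CPM, and for SLC25A23 it was 0.716, with 18 h replicate 2 lowest at 31.1 CPM. Of 86 sets of 6 induced libraries examined, 6 were marked in this way and 4.30 would be by chance, at 1 in 20, so the number alone is near that level. All 6 were in SKMEL2, and 4 of them named the same library. The cause was not tested.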

How the results depend on the processing

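The SKMEL30 results for SLC25A36 kept their direction and their side of the threshold under every alternative run, with log2 fold changes of 0.55 to 0.62 at 6 hours, 0.47 to 0.54 at 18 hours and 0.53 to 0.57 for both times, and a log2 ratio to SLC25A33 of 0.46 to 0.58. In SKMEL2 the size was steady and the call was not. At 6 hours SLC25A36 became the 1 member called with DESeq2 (0.56, adjusted p 3.22e-06), with no filter (0.55, 4.02e-11), with all 18 libraries in a single fit (0.56, 0.00201) and without 6 h replicate 3 (0.66, 0.00328), over a range of 0.50 to 0.66. At 18 hours it became the 1 member called with DESeq2 (0.60, 4.60e-08), no filter (0.60, 1.59e-13), at least 10 counts in every library (0.61, 0.0354), all 18 libraries (0.61, 0.000673) and only the libraries compared (0.60, 0.00667), over a range of 0.55 to 0.66. The replicate block, which pairs equal replicate numbers, gave 0.56 (adjusted p 0.0438) and 0.61 (0.0163) at these times, 1 member called at each, and changed no other call of these results. Whether equal numbers pair the libraries is not given in the labels, and the check of replicate numbers could not decide it. Shares of all genes called under these alternative settings are not given here, so the calls are not set against them. The mean of both times, 0.58, ran from 0.53 to 0.64 when a library was left out and lost its call in 8 of 9 such fits. The log2 ratio to SLC25A33 in SKMEL2, 0.49, ran from 0.42 to 0.57 and lost its call without 6 h replicate 1 (0.48) and without 18 h replicate 2 (0.47). The uninduced line comparison called 34 to 39 members, and the 18 h against 6 h and line difference comparisons called 0 throughout. Fewer genes or libraries enter some of these fits, and the cause of the other changes was not tested. SLC25A48, at 1.60 CPM in SKMEL30, had a log2 fold change of -0.74 that did not pass, and detectable sizes at lower depth were not tested.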
